A study of Mus musculus with 16 samples.

Results

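Lysosomal genes are described here in livers of old and young mice that had been given a plasmid coding for MANF or an empty plasmid. The 34 genes were chosen by symbol and comprise 8 proteases, 9 glycosidases, 5 lipid hydrolases and activators, 6 membrane proteins, 4 components of the proton pump, the transcription factor gene Tfeb and the progranulin gene Grn. All 34 were found among the 24010 entries of the expression table, and all 34 reached at least 0.5 RPKM (reads scaled to gene length and to the size of the library) in all 16 libraries. None of the 34 passed an adjusted p of 0.05 in any of the 6 comparisons made with limma. In mice given the MANF plasmid, 32 of the 34 had a higher value in old than in young livers, and 17 of the 34 did once all libraries were scaled to the same median. The median log2 difference as deposited was 0.25. In the same comparison 79.0% of all 10677 tested genes were higher in old livers, with a median of 0.18.

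The mice were C57BL/6 and were 23 months (old) or 5 months (young) of age. Every mouse, controls included, had received an episomal EEV plasmid by hydrodynamic injection into the tail vein, in which a large volume is injected rapidly and carries DNA into the liver. The plasmid coded for hMANF, the human form of a secreted protein of the endoplasmic reticulum, in MANF mice and was empty in control mice, and livers were analysed 5 weeks later. The 4 groups were old MANF, old control, young MANF and young control, with 4 animals and 4 libraries in each. The promoter of the plasmid and the liver cells that took it up are not given in the sources used here. Comparisons that use the same group share its libraries: the comparison of MANF with control in old mice and that of old with young control mice, for example, both rest on the old controls.

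The lysosome is the organelle in which cells break down proteins, glycans, lipids and glycogen that arrive by endocytosis or autophagy. Its soluble hydrolases work at an acid pH kept by the vacuolar proton pump, within a membrane lined by heavily glycosylated proteins, and the loss of single hydrolases causes lysosomal storage diseases. In the liver, hepatocytes carry most of the mass, while Kupffer cells, the resident macrophages, and sinusoidal endothelium are rich in lysosomes because they clear material from the blood. The transcription factor TFEB switches on many lysosomal genes together through a palindromic element in their promoters.

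Because many lysosomal genes are known to carry this element, the promoter sequences were searched for its core, TCACGTGA. The core holds the shorter CACGTG motif and reads the same on both strands. RefSeq promoter windows of 300 bases (250 before to 50 after the start site, build GRCm38.p6) were at hand for 30 of the 34 genes. The core lay in a window of 7 of the 30 genes (23.3%), against 304 of all 27025 genes with a window (1.125%), and the shorter CACGTG in 12 of the 30 (40%), against 8.09% of all genes. Capitals mark the core in each 30-base stretch below, given 5′ to 3′ on the strand of the gene:
Ctsa, GRCm38.p6, chr2:164833749-164833778, plus strand: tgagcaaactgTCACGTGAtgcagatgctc
Ctsa, GRCm38.p6, chr2:164833766-164833795, plus strand: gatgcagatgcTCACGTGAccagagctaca
Ctsd, GRCm38.p6, chr7:142387908-142387937, minus strand: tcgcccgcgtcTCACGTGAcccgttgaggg
Gla, GRCm38.p6, chrX:134601182-134601211, minus strand: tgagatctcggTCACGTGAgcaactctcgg
Gla, GRCm38.p6, chrX:134601215-134601244, minus strand: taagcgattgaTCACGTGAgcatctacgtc
Mcoln1, GRCm38.p6, chr8:3500462-3500491, plus strand: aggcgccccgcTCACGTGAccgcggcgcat
Cln3, GRCm38.p6, chr7:126583340-126583369, minus strand: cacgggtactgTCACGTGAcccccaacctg
Atp6v0d1, GRCm38.p6, chr8:105566050-105566079, minus strand: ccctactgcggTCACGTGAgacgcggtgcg
Atp6v1a, GRCm38.p6, chr16:44139373-44139402, minus strand: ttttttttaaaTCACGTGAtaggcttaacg
Ctsa and Gla held 2 copies of the core each. A match describes these letters only and does not show that a factor binds there. The genes were chosen as lysosomal genes, so a share above that of all genes could be foreseen and is not a result of the expression data.

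Each library held 11.85 to 16.58 M reads in the listed genes, and a member had at least 47 reads in every library (47 to 220 for Gla, 57 to 370 for Cd63, 98 to 180 for Tfeb, more for the others). Mouse Manf was read at 11.2 to 17.8 RPKM in old MANF and 5.95 to 8.26 RPKM in old control livers, which did not overlap, and at 7.53 to 13.8 RPKM in young MANF and 8.57 to 14.4 RPKM in young control livers, which did. A human plasmid transcript enters this row only as far as its reads align to the mouse gene. Hepatocyte markers summed to 38486 to 46654, 29829 to 42699, 33678 to 39407 and 29046 to 32957 RPKM in old MANF, old control, young MANF and young control livers. The library of old control replicate 4 stood furthest from its group (root mean square log2 deviation over all tested genes of 0.553), followed by young MANF replicate 3 (0.472), and the other 14 lay between 0.241 and 0.369.

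The mean level of a member ranged from 1.06 to 231 RPKM. Among the proteases, mean RPKM over the 16 livers was 231 for Ctsl and 92.9 for Ctsb, cysteine endopeptidases, 116 for the carboxypeptidase Ctsz, 46.1 for the aspartic protease Ctsd and 45.4 for the aminopeptidase Ctsh. Ctsa, which also protects lysosomal β-galactosidase and sialidase, averaged 22.9 RPKM, Tpp1, a tripeptidyl peptidase, 14.2 RPKM, and Ctsc, a dipeptidyl peptidase, 12.8 RPKM. Among the glycosidases, Hexa, a subunit of β-hexosaminidase that degrades gangliosides, averaged 22.9 RPKM, Gaa, which degrades glycogen, 12.3 RPKM, the α-mannosidase Man2b1 9.44 RPKM and the sialidase Neu1 7.52 RPKM. Gusb (β-glucuronidase), Naglu (a heparan sulfate glucosaminidase), Glb1 (β-galactosidase), Manba (β-mannosidase) and Gla (α-galactosidase) followed with 5.40, 5.04, 2.90, 2.43 and 1.26 RPKM. RPKM is a value per gene length, and the annotation that set the lengths is not given in the sources used here. The order of genes by level therefore holds for the deposited values only.

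Of the genes for lipid breakdown, Psap, the precursor of the saposin activators, averaged 131 RPKM and the acid lipase Lipa 53.5 RPKM. Acid ceramidase (Asah1), acid sphingomyelinase (Smpd1) and the thioesterase Ppt1 averaged 10.9, 9.15 and 6.64 RPKM. Lamp1 and Lamp2, the main glycoproteins of the lysosomal membrane, averaged 178 and 46.01 RPKM. Their reads were closer, at 8310 to 12560 and 6672 to 12429 per library, so the gap in RPKM rests largely on the gene lengths used. Scarb2, the receptor that carries glucocerebrosidase to lysosomes, averaged 28.9 RPKM, the tetraspanin Cd63 6.48 RPKM, the cation channel Mcoln1 2.69 RPKM and the membrane protein Cln3 1.77 RPKM. The pump components Atp6v0d1, Atp6ap1, Atp6v1a and Atp6v1h averaged 28.4, 17.9, 6.07 and 4.38 RPKM, the secreted precursor Grn 53.3 RPKM, and Tfeb, at 1.06 RPKM, was the lowest of all 34.

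**Figure D1:**
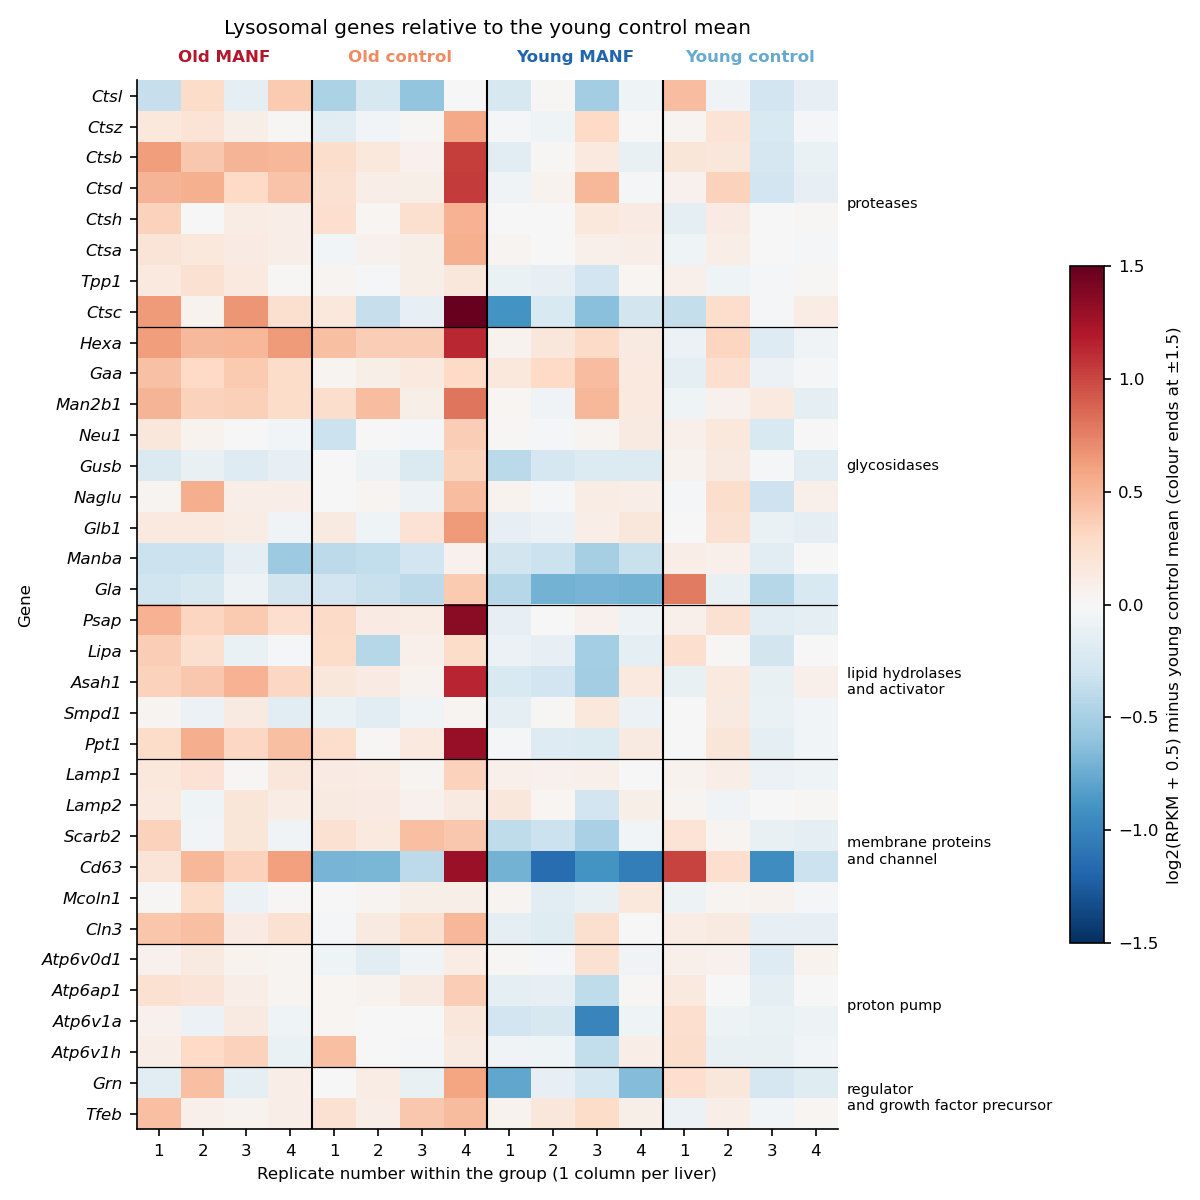
Each cell is the log2(RPKM + 0.5) of a lysosomal gene in 1 liver minus the mean of the 4 young control livers; rows are genes grouped by role and columns are livers, with old groups left of young groups and MANF left of control. The column of old control replicate 4 is the darkest red, and it holds the highest value of the 16 livers for 20 of the 34 genes.

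The spread within groups set what the comparisons could show. The coefficient of variation of a member (SD over mean, n = 4) had a median of 8.09% in old MANF, 19.6% in old control, 11.9% in young MANF and 11.99% in young control livers. Without replicate 4 the median in the 3 remaining old controls was 6.53%. Lamp2 had the lowest coefficient in both control groups, 2.31% in old and 2.46% in young livers, and Cd63 the highest, 86.1% in old and 61.7% in young livers.

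Old control replicate 4 had a higher value than the mean of the other 3 old controls for 33 of the 34 genes, with a median ratio of 1.40, and a ratio above 1.5 for 12 of them. In no other library did more than 3 members pass that ratio. The ratio was 4.01 for Cd63, 3.16 for Ctsc, 2.32 for Ppt1, 2.26 for Psap and 2.08 for Asah1. It was near 1 for other members of the same organelle: 0.980 for Atp6v1h, 1.02 for Lamp2, 1.04 for Mcoln1 and 1.09 for Scarb2. The scale of the whole library was higher as well. The median RPKM of all tested genes was 3.861 in old control replicate 4, against 3.138 to 3.335 in the other 3 old controls. The share of all tested genes with a higher value there is not reported here. Marker sums for macrophages, neutrophils and cholangiocytes were also higher in this liver than in the other old controls. The 12 Kupffer cell markers summed to 741 RPKM there, against 135 to 204 RPKM in the other 3 old controls, and the 11 recruited macrophage and monocyte markers to 509 RPKM, against 65.5 to 88.8 RPKM. Neutrophil markers summed to 22.7 RPKM in it and 2.66 to 4.70 RPKM in the other 3, and cholangiocyte markers to 67.7 RPKM and 11.4 to 13.7 RPKM. The cholangiocyte sum was nearly all Spp1, a gene also on the recruited macrophage and monocyte list, at 65.9 RPKM in old control replicate 4. Albumin took 6.84% of its reads, against 10.53% to 11.71% in the other old controls. The part of these cells in the higher lysosomal values was not tested. In bulk tissue, fewer or more cells of a type cannot be told apart from less or more RNA per cell.

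**Figure D2:**
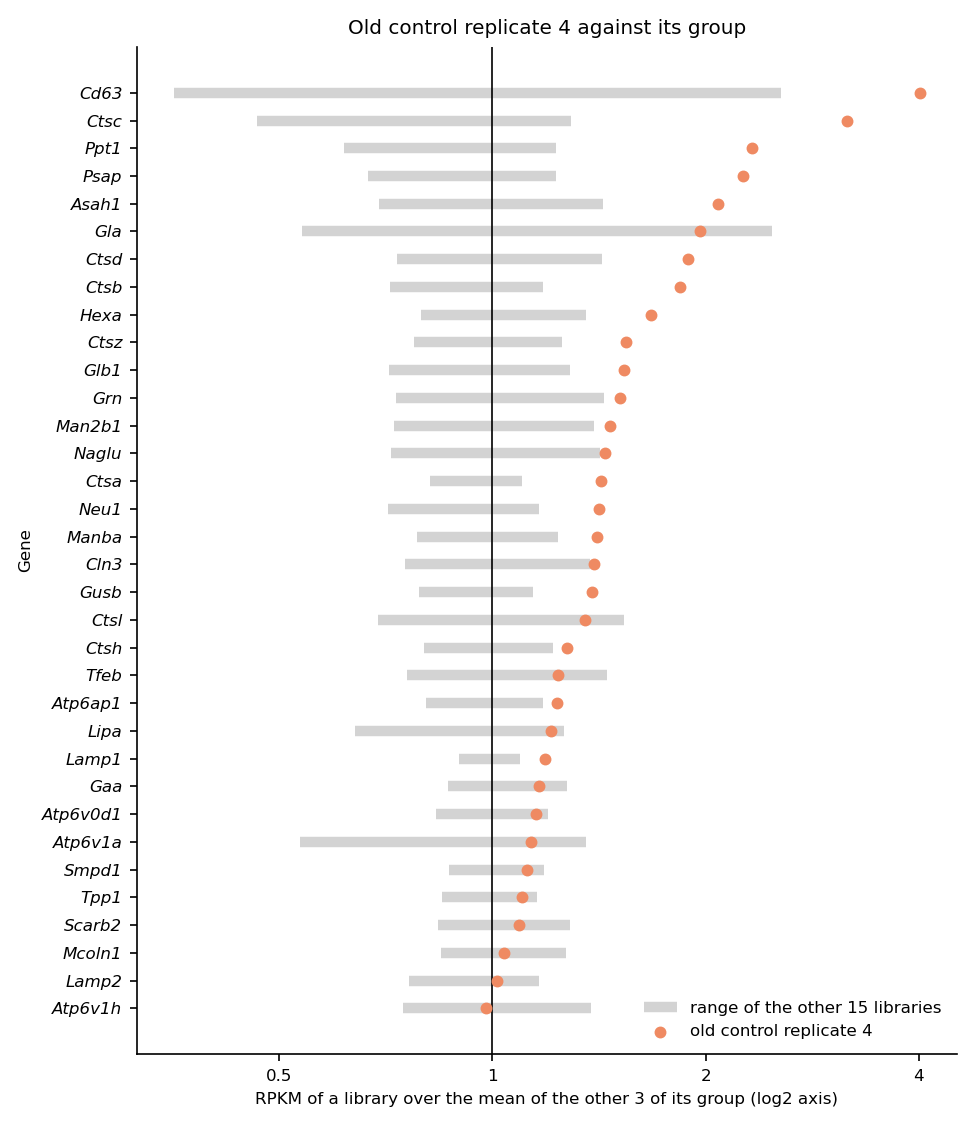
For each lysosomal gene, the point is the RPKM of old control replicate 4 divided by the mean of the other 3 old controls, and the grey bar is the range of the same ratio for the other 15 livers within their own groups (log2 axis). Cd63 and Ctsc lie furthest right, at 4.01 and 3.16, and Lamp2 and Atp6v1h lie at the line of equality.

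Age was compared first within MANF mice. There, 702 of 10677 tested genes passed the adjusted threshold (6.57%), and 0 of the 34 lysosomal genes did. Of the 702, 625 were higher and 77 lower in old livers, whereas 142 were higher and 272 lower with every library scaled to the same median, and 129 and 218 with voom on the recovered reads. The count of members was also 0 with voom, where 3 were higher and 1 lower at an unadjusted p below 0.05 (the voom share of all tested genes is not reported here). With limma, 12 members were higher and 0 lower in old MANF livers at an unadjusted p below 0.05, against 30.7% and 2.75% of all tested genes. The 4 old MANF livers lay wholly above the 4 young MANF livers for 9 members (Ctsb, Ctsc, Hexa, Gla, Asah1, Ppt1, Psap, Cd63 and Atp6ap1), against 22.3% of all tested genes, and wholly below them for 0, against 1.36%. By role, the median log2 difference, old minus young, was 0.25 for the proteases, 0.10 for the glycosidases, 0.41 for the lipid genes, 0.21 for the membrane proteins and 0.28 for the pump.

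Among the proteases, Ctsb (chr14:63122462-63145923, plus strand, GENCODE M21, GRCm38) read 120.3, 103, 111 and 110.1 RPKM in old MANF livers and 68.96, 78.5, 86.4 and 72.2 RPKM in young MANF livers. On the scale as deposited, all 4 old values lay above all 4 young ones. The means were 111 ± 7.06 and 76.5 ± 7.71 RPKM (SD, n = 4 each), and the log2 difference was 0.54 ± 0.17 (SE) with an adjusted p of 0.0639 (limma). Exons of Ctsb overlap those of Fdft1, a gene of sterol synthesis on the opposite strand, and the strand setting of the read counting is not given in the sources used here. Tpp1 (chr7:105744811-105752235, minus strand) read 15.4, 16.4, 15.5 and 14.1 RPKM in old MANF and 12.9, 12.7, 11.3 and 14.2 RPKM in young MANF livers. The groups overlapped by a narrow margin, since the lowest old value of 14.1 RPKM lay under the highest young value of 14.2 RPKM, and the log2 difference was 0.26 ± 0.081 (adjusted p = 0.0608). Ctsc, which activates granule serine proteases in immune cells, averaged 15.3 ± 3.20 RPKM in old MANF and 7.95 ± 1.78 RPKM in young MANF livers, with an adjusted p of 0.0736.

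Acid ceramidase (Asah1, chr8:41340197-41374773, minus strand) read 12.3, 12.8, 13.9 and 11.96 RPKM in old MANF livers and 8.04, 7.70, 6.52 and 10.6 RPKM in young MANF livers. The groups did not overlap, and the log2 difference was 0.62 ± 0.20 (adjusted p = 0.0619). In control mice its log2 difference, old minus young, was 0.37 ± 0.20, and 21.6 RPKM in old control replicate 4 stood against 9.89 to 10.8 RPKM in the other 3. Without that liver the difference was 0.11. The other lipid genes differed among themselves: Psap averaged 143 ± 11.5 RPKM in old MANF and 108 ± 6.31 RPKM in young MANF livers, whereas acid sphingomyelinase (Smpd1) averaged 9.21 ± 0.899 and 9.24 ± 0.926 RPKM. The log2 difference of Smpd1 was -0.0050 ± 0.092 (SE), with an approximate 95% interval of -0.19 to 0.18.

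Scarb2 (chr5:92441314-92506833, minus strand) had the smallest adjusted p of the 34. It read 35.6, 27.00, 31.8 and 26.8 RPKM in old MANF and 21.2, 22.2, 19.7 and 27.1 RPKM in young MANF livers, and 32.7, 31.01, 38.4 and 37.1 RPKM in old control and 32.3, 28.7, 25.8 and 25.4 RPKM in young control livers. The young MANF livers were the low group. The log2 difference was 0.42 ± 0.12 between the ages in MANF mice (adjusted p = 0.051) and 0.31 ± 0.12 in control mice (adjusted p = 0.24).

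The tetraspanin Cd63 (chr10:128900989-128912822, plus strand) had the largest log2 difference of the 34 with age in MANF mice. It read 7.26, 9.11, 8.10 and 9.93 RPKM in old MANF livers and 3.64, 2.57, 3.16 and 2.80 RPKM in young MANF livers. Every old value lay above every young one, and the log2 difference was 1.36 ± 0.41 (adjusted p = 0.0536). In the control groups Cd63 read 3.70, 3.72, 4.69 and 16.2 RPKM in old livers and 13.2, 7.56, 3.05 and 4.92 RPKM in young livers. There, 1 old and 1 young liver stood far above the rest, and the difference between the ages was -0.12 ± 0.41 on the log2 scale, or -0.59 without old control replicate 4. Both of those livers also had high sums of cholangiocyte markers (67.7 RPKM in old control replicate 4 and 119 RPKM in young control replicate 1), against 11.4 to 77.1 RPKM in the other 14. Nearly all of these 2 sums was the single gene Spp1, at 65.9 and 117 RPKM, which is also on the recruited macrophage and monocyte list. In old MANF replicate 3, with a cholangiocyte sum of 77.1 RPKM, Cd63 read 8.10 RPKM. That was below the 9.93 RPKM of old MANF replicate 4, whose cholangiocyte sum was 33.2 RPKM. The part of any such cells in the Cd63 values was not tested.

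The count of members called in MANF mice changed with the samples in the fit and with the scale. Without old control replicate 4, a library that is in neither group of this comparison but enters the common spread, 11 members passed and all 11 were higher in old MANF livers (Ctsb, Ctsc, Tpp1, Hexa, Asah1, Ppt1, Psap, Cd63, Scarb2, Atp6ap1 and Grn), as did 15.7% of all tested genes. With only the 2 groups compared in the fit, 8 members passed, and 9.36% of all tested genes were called higher. Without young MANF replicate 4, 5 members passed (9.49% of all genes), without young control replicate 1, 2 did (5.54%), and without young control replicate 3, 1 did (4.41%). With a pseudocount of 0.1, 2 passed (7.36%), and with old control replicate 4 and young MANF replicate 3 left out together, 10 did (12.3%).

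The scale of the libraries moved with age in MANF mice as well. The median RPKM of the tested genes was 3.32 to 3.62 in old MANF and 2.57 to 3.04 in young MANF livers, the lowest being young MANF replicate 3. With every library scaled to the same median, the median log2 difference of all tested genes was -0.028 in place of 0.18. The median of the 34 members was then -0.00057 in place of 0.25, with 17 of 34 above 0 and 0 called. By role the medians were then -0.00057 for the proteases, -0.13 for the glycosidases, 0.15 for the lipid genes, -0.012 for the membrane proteins and 0.036 for the pump. Among the genes described above the scaled log2 difference was 1.13 for Cd63, 0.37 for Asah1, 0.28 for Ctsb, 0.16 for Scarb2 and 0.0083 for Tpp1. Of the members whose old and young MANF livers did not overlap as deposited, Ctsc, Asah1 and Cd63 still lay apart once scaled. The groups then overlapped for Ctsb, Hexa, Gla, Ppt1, Psap and Atp6ap1. Cd63, Ctsc and Asah1 were the 3 members called higher when this scaling was combined with leaving out old control replicate 4, where 6.03% of all tested genes were called higher.

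**Figure D3:**
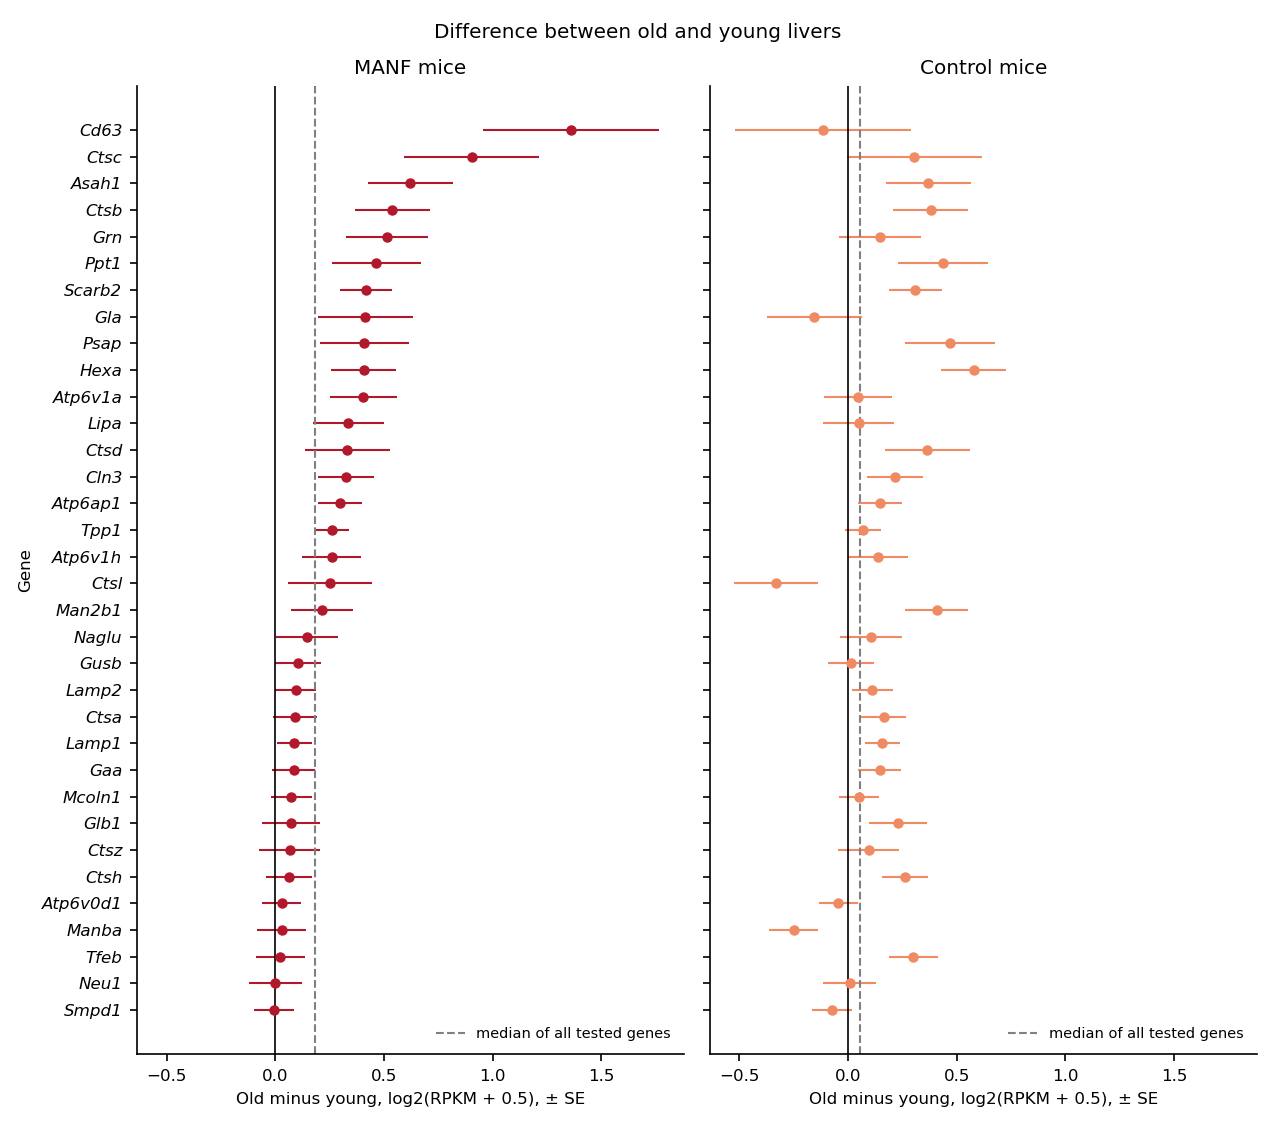
Points give the difference between old and young livers on the log2(RPKM + 0.5) scale for each lysosomal gene, in MANF mice on the left and in control mice on the right, with SE bars; the dashed line is the median of all tested genes. Cd63 has the largest value in MANF mice, at 1.36, and lies below 0 in control mice, at -0.12 (-0.59 without old control replicate 4). In MANF mice 32 of the 34 points lie above 0, and 17 would with every library scaled to the same median.

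In control mice, 133 of 10677 genes passed the adjusted threshold with age (1.25%), 96 higher and 37 lower in old livers (57 and 61 with median scaling), and 0 of the 34 members did, with limma or with voom. At an unadjusted p below 0.05, 7 members were higher and 1 was lower in old controls, against 11.3% and 3.57% of all tested genes. Values were higher in old controls for 28 of the 34, with a median log2 difference of 0.15, beside 62.2% and 0.054 for all tested genes. The groups did not overlap for 2 members, Hexa and Lamp2, both higher in old livers, against 8.13% of all genes. Without old control replicate 4 the median of the members was 0.056, 21 of 34 were above 0, and 1 was higher and 2 were lower at an unadjusted p below 0.05. Of all tested genes, 53.6% were then above 0, 8.3% were higher and 5.29% were lower at that threshold.

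Hexa (chr9:59539540-59565109, plus strand) read 24.4, 23.1, 22.98 and 39.4 RPKM in old control livers and 16.7, 22.3, 15.5 and 17.1 RPKM in young control livers. Every old value lay above every young one, although the lowest old value and the highest young value were less than 1 RPKM apart. The log2 difference was 0.58 ± 0.15 with an adjusted p of 0.0719, and without old control replicate 4 it was 0.40 with an adjusted p of 0.102. In MANF mice Hexa read 27.5, 25.1, 25.3 and 27.98 RPKM in old and 18.3, 19.9, 21.7 and 19.5 RPKM in young livers, again without overlap, and the log2 difference was 0.41 ± 0.15 (adjusted p = 0.087). Hexa was the one member whose old livers lay wholly above the young ones under both plasmids on the scale as deposited. With every library scaled to the same median, its old and young livers overlapped under both plasmids.

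The α-mannosidase gene Man2b1 (chr8:85083270-85098282, plus strand) read 9.47, 11.02, 8.38 and 14.1 RPKM in old control and 7.45, 8.19, 8.70 and 7.07 RPKM in young control livers, with a log2 difference of 0.41 ± 0.14 (adjusted p = 0.187). Its groups overlapped in 1 liver, old control replicate 3. Tfeb (chr17:47737030-47792419, plus strand) read 1.14, 0.990, 1.35 and 1.43 RPKM in old control and 0.815, 0.9995, 0.855 and 0.921 RPKM in young control livers, and the log2 difference was 0.30 ± 0.11 (adjusted p = 0.215). In MANF mice it read 1.41, 0.967, 0.944 and 1.002 RPKM in old and 0.946, 1.07, 1.19 and 0.984 RPKM in young livers, where the groups overlapped and the difference was 0.024 ± 0.11. Manba and Ctsl were lower in old than in young controls by value, with log2 differences of -0.25 ± 0.11 and -0.33 ± 0.19 and adjusted p-values of 0.319 and 0.47.

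**Figure D4:**
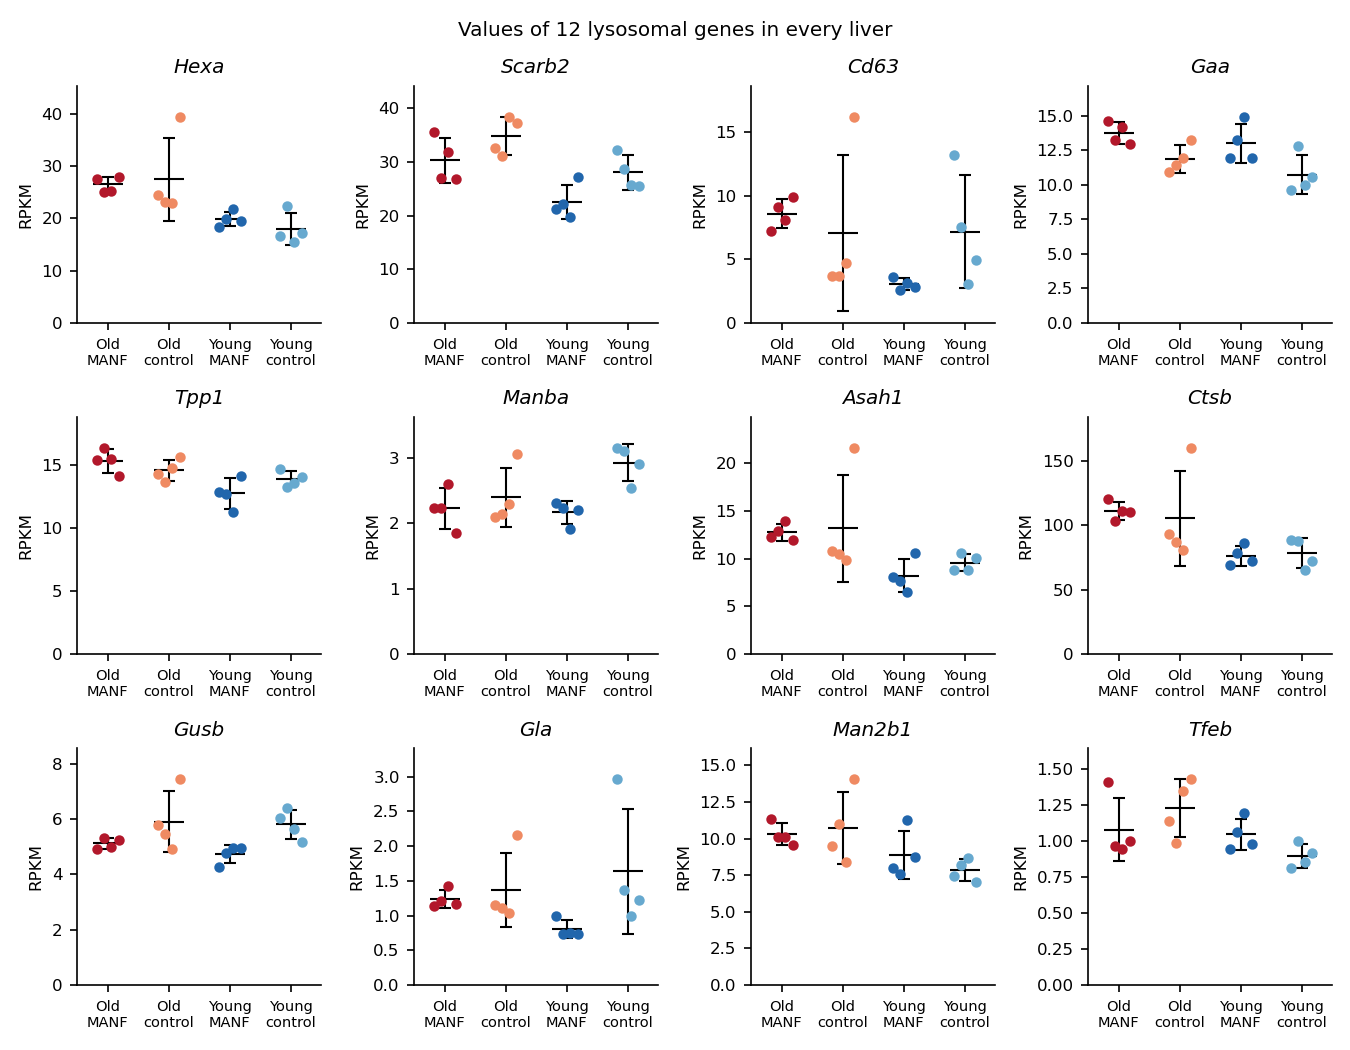
Each panel gives the RPKM of a lysosomal gene in every liver (points) with the group mean and SD (bars, n = 4), in the order old MANF, old control, young MANF and young control; all axes start at 0. Cd63 is spread over 3.70 to 16.2 RPKM in old controls and 2.57 to 3.64 RPKM in young MANF livers, and Scarb2 is lowest in young MANF livers.

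In old mice, MANF against control called 11 of 10677 genes (0.103%) and 0 of the 34 members. At an unadjusted p below 0.05 voom found 2 lower members (the voom share of all tested genes is not reported here). Limma still found 0 members at that threshold, against 9.7% of all genes. Of the members, 17 were above 0 and 17 below, with a median log2 difference of -0.0015, beside 59.1% and 0.034 for all tested genes. The groups overlapped for all 34, whereas 3.5% of all tested genes lay wholly higher and 1.84% wholly lower in old MANF livers. Lamp1 averaged 184 ± 10.2 RPKM in old MANF and 187 ± 17.4 RPKM in old control livers, and the approximate 95% interval of its log2 difference was -0.18 to 0.15. For Psap, at 143 ± 11.5 and 164 ± 78.7 RPKM, the interval was -0.51 to 0.32, too wide to set a close limit. Their log2 differences were -0.017 and -0.094, and 0.045 and 0.20 without old control replicate 4. Leaving out old control replicate 4 changed this picture: 28 of 34 members were then above 0, the median was 0.11, 7 were higher at an unadjusted p below 0.05, and 0 were called (lowest adjusted p = 0.107). In that fit 14.4% of all tested genes were higher at an unadjusted p below 0.05, 67% were above 0, and the median was 0.079.

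In young mice the comparison of MANF with control called 2 of 10677 genes (0.0187%) and 0 members, with limma or voom. The members were above 0 in 13 of 34 cases with a median log2 difference of -0.024, beside 32.1% and -0.10 for all tested genes. At an unadjusted p below 0.05, 7 members were lower (Manba, Gla, Scarb2, Atp6v1a, Gusb, Grn and Cd63) and 1, Gaa, was higher in young MANF livers, against 11.1% and 3.81% of all tested genes. For Atp6v1a the log2 difference was -0.39, and -0.19 without young MANF replicate 3. The young MANF livers lay wholly below the young controls for 3 glycosidases, Manba, Gla and Gusb, against 6.59% of all genes, and wholly above them for 0 members, against 2.29%. With median scaling the median of all genes was 0.0091 and that of the members 0.10, with 22 of 34 above 0. On that scale the young groups still lay apart for Manba and overlapped for Gla and Gusb.

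Manba (chr3:135485611-135571404, plus strand), the β-mannosidase gene, read 2.31, 2.23, 1.91 and 2.20 RPKM in young MANF livers and 3.15, 3.11, 2.53 and 2.90 RPKM in young control livers. The groups did not overlap, and the log2 difference was -0.36 ± 0.11 (adjusted p = 0.227 with limma). In old mice Manba read 2.24, 2.23, 2.60 and 1.84 RPKM in MANF and 2.09, 2.14, 2.29 and 3.06 RPKM in control livers, and the log2 difference was -0.081 ± 0.11, with the other sign, 0.022, without old control replicate 4. Gla (chrX:134588149-134601125, minus strand), the gene of the enzyme lost in Fabry disease, read 0.997, 0.740, 0.744 and 0.737 RPKM in young MANF and 2.97, 1.37, 0.998 and 1.22 RPKM in young control livers. On the scale as deposited the groups met without overlapping, at 0.997 RPKM in the highest MANF liver and 0.998 RPKM in the lowest control liver. Young control replicate 1 stood far above the others. The log2 difference was -0.64 ± 0.22 (adjusted p = 0.247), and without that control library it was -0.38 (adjusted p = 0.545).

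Over both ages, MANF against control called 138 of 10677 genes (1.29%) and 0 members, with limma or voom. At an unadjusted p below 0.05, 1 member was higher and 4 were lower with MANF, against 6.17% and 7.91% of all tested genes. The higher one was Gaa (chr11:119267887-119285454, plus strand), the glycogen-degrading glucosidase that is missing in Pompe disease. It read 14.6, 13.2, 14.2 and 12.97 RPKM in old MANF and 10.9, 11.4, 11.9 and 13.3 RPKM in old control livers, and 11.96, 13.2, 14.9 and 11.9 RPKM in young MANF and 9.62, 12.8, 9.98 and 10.5 RPKM in young control livers. Within each age 1 control liver reached into the range of the MANF livers. The log2 difference was 0.21 ± 0.10 in old mice, 0.27 ± 0.10 in young mice and 0.24 ± 0.071 over both, with an adjusted p of 0.135.

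The 4 lower ones were Scarb2, Gusb, Manba and Gla. Gusb (chr5:129989011-130003049, minus strand) read 4.92, 5.31, 4.99 and 5.26 RPKM in old MANF and 5.80, 5.47, 4.91 and 7.45 RPKM in old control livers, and 4.27, 4.79, 4.95 and 4.95 RPKM in young MANF and 6.04, 6.40, 5.64 and 5.16 RPKM in young control livers. Old MANF livers lay within the range of the old controls. Young MANF livers lay below the young controls on the scale as deposited, but not with every library scaled to the same median. Its log2 difference over both ages was -0.22 ± 0.075 (adjusted p = 0.186), and that of Scarb2 was -0.26 ± 0.086 (adjusted p = 0.182).

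The test of whether the MANF difference itself differed between the ages called 0 of 10677 genes (0.0%) and 0 members. At an unadjusted p below 0.05 it found 1 member, Cd63, against 8.37% of all genes, and voom called 0 genes and 0 members too. The log2 difference of Cd63 between MANF and control livers was 0.53 ± 0.41 in old mice and -0.95 ± 0.41 in young mice, and the difference between these was 1.48 ± 0.57 (adjusted p = 0.594). Without old control replicate 4 the difference in old mice was 1.002, and old minus young it was 1.95 (adjusted p = 0.0872). For the 34 members together the median was 0.072, beside 0.12 for all tested genes.

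Differences were also read for the 7 members with the TFEB core in their promoter window. In MANF mice all 7 were higher in old livers with a median log2 difference of 0.33, and of the 23 members whose window lacked the core 21 were higher with a median of 0.22. In control mice the medians, old minus young, were 0.050 for the 7 and 0.14 for the 23. Between MANF and control livers the medians were 0.0048 and -0.015 in old mice and -0.019 and -0.036 in young mice. With median scaling 4 of the 7 and 10 of the 23 were higher in old MANF livers, with medians of 0.073 and -0.032. No test was made of these medians.

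Other genes of the same system were read from lists of hydrolases, membrane proteins, pump subunits, sorting receptors, nutrient sensing and autophagy, with 132 of 133 symbols in the table and 125 tested. With age in MANF mice, 11 of the 125 were called, all 11 higher in old livers (8.8%, beside 6.57% of all tested genes). Among them were the hydrolases Ctss, Galc, Ids, Lgmn and Ctsk, the membrane proteins Laptm5 and Cln6, the pump subunit Atp6v0d2 and Gnptab, an enzyme of the mannose-phosphate tag on hydrolases; Lgmn and Ctsk are named here after their values were seen. Ctss, a cathepsin of antigen-presenting cells, read 48.5, 37.9, 44.5 and 42.3 RPKM in old MANF and 6.91, 10.6, 14.4 and 11.3 RPKM in young MANF livers. The groups were far apart, with a log2 difference of 1.99 ± 0.48 (adjusted p = 0.0285). Galc, the galactosylceramidase, averaged 1.74 ± 0.309 RPKM in old MANF and 0.996 ± 0.0976 RPKM in young MANF livers (log2 0.57 ± 0.13, adjusted p = 0.0265). Each of Ctss, Galc, Ids, Laptm5, Cln6, Atp6v0d2 and Gnptab lost its call in 5 to 14 of the 16 fits that left out 1 library, with the highest adjusted p at 0.105, and with median scaling 1 of the 125 was called higher and 4 were called lower.

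In control mice 2 of the 125 were called with age (1.6%, beside 1.25% of all tested genes). Galc rose to 2.08, 2.35, 1.94 and 3.21 RPKM in old control livers, against 1.16, 1.44, 1.23 and 1.001 RPKM in young control livers, and the log2 difference was 0.75 ± 0.13 (adjusted p = 0.0148), and lost its call without young control replicate 4 (adjusted p = 0.069). Sort1, a receptor that sorts proteins to lysosomes, fell to 0.733, 0.830, 0.571 and 1.57 RPKM in old control livers, against 2.51, 2.34, 1.97 and 2.84 RPKM in young control livers. Its log2 difference was -1.07 ± 0.19 (adjusted p = 0.0148), with the call lost without old control replicate 1 or 3 or young control replicate 1 or 4 (highest adjusted p = 0.0692). Galc is the one gene of these lists that was called with age under both plasmids.

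For MANF against control over both ages, 4 of the 125 were called (3.2%, beside 1.29% of all tested genes), 2 in each direction. Atp6v1d, a subunit of the pump's soluble part, read 17.4, 18.7, 15.3 and 16.5 RPKM in old MANF and 19.3, 19.4, 21.2 and 19.8 RPKM in old control livers, and 15.2, 15.7, 14.6 and 16.7 RPKM in young MANF and 23.5, 21.3, 19.5 and 21.01 RPKM in young control livers. On the scale as deposited, MANF livers lay wholly below control livers at both ages, and the log2 difference was -0.33 ± 0.058 (adjusted p = 0.0124). With every library scaled to the same median, the old groups overlapped and the young groups stayed apart. Flcn, folliculin, which acts on the kinase signalling that keeps TFEB in the cytoplasm, read 9.68, 9.19, 8.39 and 8.43 RPKM in old MANF and 5.42, 7.20, 6.51 and 7.14 RPKM in old control livers, and 8.42, 6.49, 6.53 and 7.74 RPKM in young MANF and 5.15, 5.69, 5.58 and 5.52 RPKM in young control livers. All MANF values lay above all control values of the same age, with a log2 difference of 0.40 ± 0.072 (adjusted p = 0.0153). Both calls held in all 16 fits that left out 1 library, with highest adjusted p-values of 0.0354 for Atp6v1d and 0.0395 for Flcn. Atp6v0a2, a membrane subunit of the pump, was lower by -0.32 ± 0.072 (adjusted p = 0.0383), and Gabarapl1, an autophagosome protein, was higher by 0.39 ± 0.085 (adjusted p = 0.035). Their calls were lost in 12 and 10 of the 16 fits, with highest adjusted p-values of 0.0933 and 0.0821. The 4 pump components among the members had log2 differences over both ages of 0.079 (Atp6v0d1), -0.082 (Atp6ap1), -0.038 (Atp6v1h) and -0.21 (Atp6v1a, or -0.11 without young MANF replicate 3), with adjusted p-values of 0.397 and above.

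Markers of other cell types moved with age beside these genes. The 12 Kupffer cell markers summed to 229.9 ± 67.7 RPKM in old MANF and 96.5 ± 43.4 RPKM in young MANF livers, with ranges of 158 to 312 and 41.4 to 148 RPKM. Values were higher in old livers for 11 of the 12 in MANF mice and for 12 of 12 in control mice, with median log2 differences of 1.23 and 1.21, and 0 of them passed the adjusted threshold in either with limma or voom. At an unadjusted p below 0.05 limma found 8 higher under each plasmid. Sums in control mice were 135 to 741 RPKM in old and 66.3 to 184 RPKM in young livers. Sinusoidal endothelium markers were higher in old livers for 12 of 12 under both plasmids (10 of 12 in MANF mice with median scaling), with 6 called in control mice (3 with voom, 2 with median scaling) and 0 in MANF mice (3 higher at an unadjusted p below 0.05, and 0 called with voom). They summed to 38.7 to 88.02 RPKM in old MANF and 30.1 to 55.9 RPKM in young MANF livers, and to 55.8 to 73.9 and 26.8 to 36.2 RPKM in old and young controls. The 11 recruited macrophage and monocyte markers summed to 121 to 182 RPKM in old MANF and 47.3 to 78.3 RPKM in young MANF livers. Of 9 tested, 8 were higher and 2 were called, beside 6.57% of all tested genes. Stellate cell and fibroblast markers summed to 135 to 157 and 74.9 to 94.5 RPKM in the same groups, with 11 of 11 tested higher and 4 called. In control mice 7 of 9 recruited macrophage markers and 5 of 11 stellate markers were higher in old livers, with median log2 differences of 0.60 and -0.078. There 0 of either list were called with limma or voom, and at an unadjusted p below 0.05 limma found 2 higher and 1 lower of the macrophage markers and 0 of the stellate ones. No marker of these 4 lists was at 0 in every library, and the part of these cells in the lysosomal values was not tested.

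**Figure D5:**
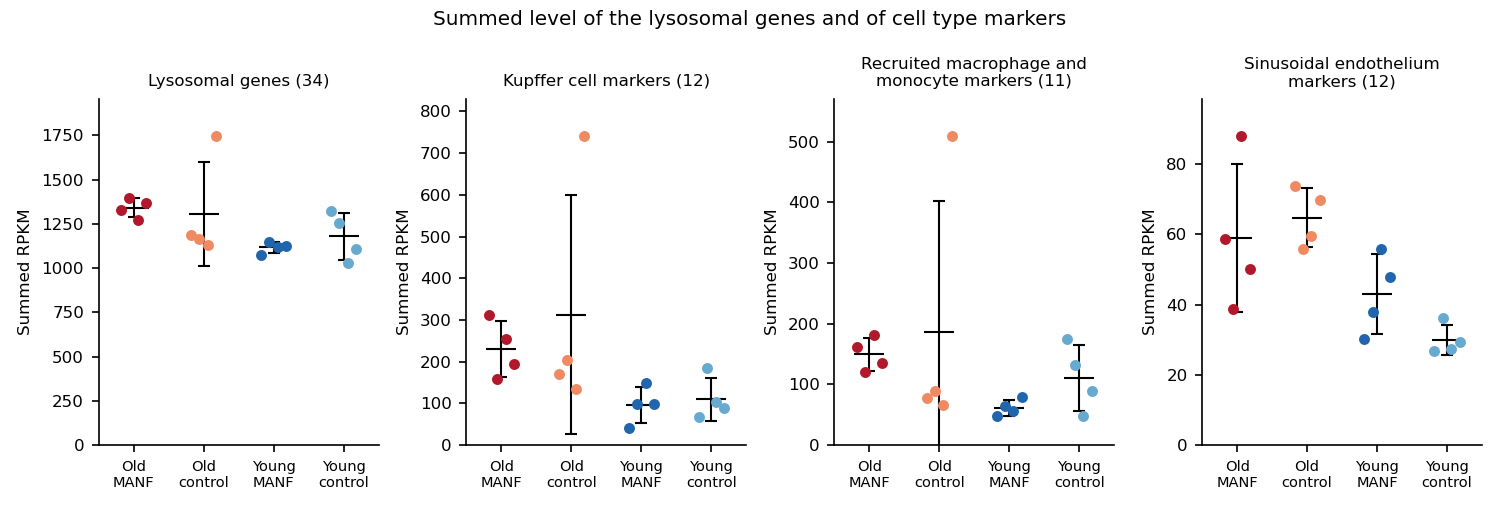
Summed RPKM per liver of the 34 lysosomal genes and of 3 marker lists, in the order old MANF, old control, young MANF and young control; points are livers, bars are the mean and SD (n = 4), axes start at 0, and an SD bar that would go below 0 ends there. Old control replicate 4 is the highest point of its group in the first 3 panels, at 1747, 741 and 509 RPKM.

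The summed RPKM of the 34 members followed from these values. It was 1329, 1396, 1275 and 1368 in old MANF, 1185, 1163, 1133 and 1747 in old control, 1077, 1150.4, 1117 and 1127 in young MANF and 1322, 1257, 1030.4 and 1109.7 in young control livers. Old MANF livers lay above young MANF livers without overlap, and the 2 control groups overlapped. These sums are on the scale as deposited. The median RPKM of all tested genes also lay apart, at 3.32 to 3.62 in old MANF and 2.57 to 3.04 in young MANF livers, so the separation of the sums is not particular to the members. The proteases made up the largest share of the sum, 601 to 690.2 RPKM in old MANF, 492 to 789 RPKM in old control, 504 to 557 RPKM in young MANF and 479.7 to 662 RPKM in young control livers.

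The members not yet given liver by liver differed in how far they ranged. Over all 16 livers, Ctsa ranged over 20.4 to 31.3 RPKM, Ctsh over 37.6 to 60.00 RPKM, Lamp1 over 157 to 212 RPKM, Lamp2 over 36.1 to 50.1 RPKM, Atp6v0d1 over 24.3 to 32.9 RPKM and Smpd1 over 8.18 to 10.5 RPKM. Ctsl ranged over 162 to 339 RPKM, with its highest value in young control replicate 1, and was the member with the smallest p after Gaa between MANF and control in old mice, at 259.5 ± 60.6 RPKM in MANF and 198 ± 37.1 RPKM in control livers (log2 0.38 ± 0.19, adjusted p = 0.564). In young mice Ctsl averaged 216 ± 34.2 RPKM in MANF and 251 ± 60.8 RPKM in control livers. Grn averaged 57.4 ± 12.2, 61.1 ± 14.3, 40.1 ± 8.60 and 54.7 ± 9.41 RPKM in old MANF, old control, young MANF and young control livers, and Atp6v1a 6.42 ± 0.521, 6.59 ± 0.434, 4.86 ± 1.34 and 6.39 ± 0.866 RPKM, with its lowest value, 2.94 RPKM, in young MANF replicate 3. That liver held the lowest value of the 16 for 9 of the 34 members.

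Some of these genes share exons with others, which could change the reads in their rows. In GENCODE M21, exons of Ctsd, Ctsl and Glb1 overlap Gm49369, Gm49230 and Tmppe on the same strand, and how reads in such exons were assigned is not given in the sources used here. Exons of Ctsa, Ctsl, Ctsz, Hexa, Ppt1, Lamp1, Cln3, Atp6v1h and Grn, like those of Ctsb, overlap genes on the opposite strand. The strand setting of the counting is not given either.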

How the data were processed

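RNA was taken from whole livers of 16 mice (4 groups of 4 animals) with Trizol and made into TruSeq libraries, per the labels. Alignment with STAR 2.4.2a, counting with HTSeq and the build mm10 are named in the submitters' processing notes, with no annotation or strand setting. The authors deposited RPKM values of 24010 entries (24 with a number in place of a symbol), of which 6664 are 0 in every library. RPKM corrects for gene length and library size but not for composition, so that a few highly expressed genes can shift the values of all others.

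Whole reads were recovered from the spacing of the RPKM: 100% of values above 0 came out whole, with a largest distance of 0.000518 reads. They were used for depth and for 1 alternative test. Precision is set by the 4 animals per group.

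The main test was limma 3.58.1 (R 4.3.3), with an intensity trend, on log2(RPKM + 0.5) of the 10677 entries with at least 0.5 RPKM in at least 4 libraries; 13333 were not tested. A fold change on this scale understates the change of low genes. All 16 libraries entered 1 fit with a mean per group (12 residual degrees of freedom), and 6 contrasts were tested two-sided with Benjamini-Hochberg adjustment over all tested genes. Calls have an adjusted p below 0.05. The script was tested on simulated data. The 34 members and all lists were chosen with earlier results of these data known. Values are given per liver for members called in a contrast and otherwise for those with the smallest p, up to 5 per contrast and 12 in all, and at most 4 called genes of each other list are named per contrast. Some genes of these lists are not reported here.

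Alternatives were pseudocounts of 0.1 and 1, a minimum of 1 RPKM or none, median and quantile scaling, voom on the recovered reads with trimmed-mean factors (calls made over the same genes), a fit of the 2 groups compared, the replicate number as a block, and leaving out libraries. Leaving out old control replicate 4 together with median scaling was added after seeing the data. Gene positions are from GENCODE M21 (GRCm38) and promoter windows from RefSeq (GRCm38.p6), where 30 of 34 members were matched by symbol.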

Additional observations from a re-analysis of the deposited data

Results flagged for a closer look

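Within each group of 4 livers, a value was marked where the highest or lowest liver stood far from the other 3. Chance marks about 1 in 20 groups. Of 136 groups of member values, 17 were marked, and 9 of these were old control replicate 4, always as the highest of its group.

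In that liver Ctsb stood at 160.2 RPKM (81.2 to 93.3 in the other 3), Ctsc at 33.5 RPKM (8.78 to 12.6), Ctsd at 79.6 RPKM (40.5 to 44.7), Gla at 2.16 RPKM (1.04 to 1.16) and Hexa at 39.4 RPKM (23.0 to 24.4). The lipid genes Asah1, Ppt1 and Psap stood at 21.6, 14.4 and 281 RPKM, against 9.89 to 10.8, 5.64 to 6.78 and 119 to 134 RPKM, and Cd63 at 16.2 RPKM (3.70 to 4.69). Outside the members, Ctss stood at 165 RPKM (22.6 to 28.4), Laptm5 at 12.5 RPKM (2.46 to 3.07) and Gnptab at 2.68 RPKM (1.80 to 1.90). The summed RPKM of all 34 members was 1747, that of the proteases 789, of the glycosidases 100.1 and of the membrane proteins 319. Marker sums were 741 RPKM for Kupffer cells, 509 RPKM for recruited macrophages and monocytes, 22.7 RPKM for neutrophils and 67.7 RPKM for cholangiocytes (65.9 RPKM of it Spp1). The part of such cells in the member values was not tested.

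The other 8 marked member values came from other livers. Ctsd was highest in young MANF replicate 3 (54.1 RPKM, 36.7 to 39.5 in the other 3), Gla in young MANF replicate 1 (0.997 RPKM, 0.737 to 0.744), Naglu in old MANF replicate 2 (7.03 RPKM, 4.82 to 5.04), Atp6v1a in young control replicate 1 (7.69 RPKM, 5.90 to 6.00) and Tfeb in old MANF replicate 1 (1.41 RPKM, 0.944 to 1.002). Lipa was lowest in young MANF replicate 3 (37.3 RPKM, 48.1 to 49.9), Lamp2 in old control replicate 3 (46.3 RPKM, 48.3 to 48.6) and Atp6v0d1 in young control replicate 3 (24.3 RPKM, 28.9 to 29.5).

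Among the other genes and sums, Ctss was highest in young control replicate 2 at 24.5 RPKM (9.92 to 11.5 in the other 3) and Gabarapl1 in old control replicate 3 at 123 RPKM (109.6 to 111). Ids was lowest in young MANF replicate 3 at 0.942 RPKM (1.82 to 1.86) and Cln6 in old MANF replicate 4 at 2.20 RPKM (2.85 to 2.94). B and plasma cell markers summed to 6.86 RPKM in young control replicate 2 (1.46 to 1.91), cholangiocyte markers to 18.4 RPKM in young MANF replicate 4 (12.6 to 13.5) and hepatocyte markers to 29046 RPKM in young control replicate 1 (32562 to 32957 in the other 3).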

How the results depend on the processing

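Under each alternative, 0 members were called in every contrast other than old against young in MANF mice. There 0 members were called higher as reported, 2 with a pseudocount of 0.1, 8 with only the 2 groups compared, 10 with the libraries furthest from their groups (old control replicate 4, young MANF replicate 3) left out together, and 3 with median scaling and without old control replicate 4. Leaving out each of the 16 libraries in turn gave 0 to 11 members called higher, the highest without old control replicate 4. Leaving out a library lowers the number of samples, and the cause of the other changes was not tested. Signs of uncalled differences did change: 11 of the 34 members had the other sign without old control replicate 4 in MANF against control in old mice, 7 did in old against young controls, and 15 did with median scaling in old against young MANF mice. The count of all genes called in that contrast, 702 as reported, was 414 with median scaling, 347 with voom, 247 with quantile scaling, 1072 with the 2 groups alone, 1810 without old control replicate 4 and 238 without young MANF replicate 3. Quantile scaling called 76 higher and 171 lower. For MANF against control over both ages, 63 higher and 75 lower genes became 80 and 40 with median scaling. Over the called genes of other lists that were followed, 42 of 150 checks other than those leaving out 1 library lost the call.

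With the replicate number as a block, 0 members were called in each contrast, and 459 genes in old against young in MANF mice. Deviations from the group means correlated at -0.319 to 0.21 over the 24 pairs of libraries with the same number (median 0.01, against -0.014 for the 72 other pairs). The labels name no pairing or batch, and these correlations cannot show whether animals with the same number were handled together. The lowest depth behind a member value was 47 reads, for Gla.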
